A study of Mus musculus with 18 samples.

Results

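Obstructed kidneys of mice with an endothelial deletion of Snail were compared with obstructed kidneys of wild-type (WT) mice, 3 libraries against 3, which are 6 of the 18 whole-kidney RNA libraries of the study. Obstruction was unilateral ureteral obstruction (UUO), in which a ureter is closed and the kidney above it becomes injured and scarred. The Snail cKO UUO mice all carried Cdh5-CreERT2 and floxed Snail alleles, on a mixed C57BL6 and Balb/c background. Cdh5-CreERT2 is a Cre recombinase under the promoter of the VE-cadherin gene of endothelial cells, and it acts after tamoxifen. The WT UUO mice came from the Twist line, on a mixed C57BL6, 129sv and Balb/c background: replicates 1 and 2 carried the Cre without floxed alleles, and replicate 3 was Cre-negative with floxed Twist alleles. All 6 were 12 weeks old at the endpoint. Sex was read from the counts, with Ddx3y above Xist taken as male: 2 of 3 Snail cKO UUO libraries and 1 of 3 WT UUO libraries read as male. Strain background, line and group cannot be told apart here. Beside them stood 3 obstructed kidneys with endothelial Twist deletion (Twist cKO UUO: Cdh5-CreERT2, floxed Twist, the strain mix of the WT mice) and 3 with tubular Myc deletion (Myc cKO UUO: GGT-Cre, which is active in tubule cells, floxed Myc, the strain mix of the Snail mice, up to 12 weeks old). Unobstructed kidneys were 3 healthy ones, from Cre-negative mice with floxed Twist alleles, and 3 contralateral ones, from mice with the same genotypes as the WT UUO group. All 18 libraries entered the fit. Which kidneys share an animal is not stated in the labels, and the p-values reflect the spread among these samples alone.

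Snail, encoded by Snai1, is a zinc-finger repressor that binds E-box sequences such as CAGGTG and switches off epithelial and junction genes when cells take on a mesenchymal state. Endothelial cells can express it and undergo endothelial-to-mesenchymal transition (EndMT), losing vessel markers and gaining fibroblast markers. The study asked how this transition bears on vessel integrity, hypoxia and tubular metabolism in kidney fibrosis, which is marked by myofibroblasts, collagen deposition and the loss of proximal tubule function.

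Depth was 57.1 to 67.9 M counts in the Snail cKO UUO libraries and 59.5 to 62.0 M in the WT UUO libraries. Mitochondrial ribosomal RNA took 25.0% ± 1.20 of counts in Snail cKO UUO and 19.6% ± 0.675 in WT UUO kidneys (SD, n = 3 each). The groups did not overlap, and the exact permutation test gave p = 0.1, two-sided, the smallest that 3 against 3 can give. WT UUO replicate 1 held more urothelial transcripts than the other 5 libraries: the 9 urothelial markers summed to 7.03, 26.3 and 101 CPM (counts scaled to the TMM-adjusted library total) in Snail cKO UUO and to 544, 124 and 40.3 CPM in WT UUO replicates 1 to 3. The 5 erythroid markers summed to between 19 and 28.5 CPM in Snail cKO UUO and between 62.3 and 85.3 CPM in WT UUO kidneys. No gene of these lists passed edgeR's test used below, with 4 in each at an unadjusted p under 0.05, against 14.9% of all genes tested. DESeq2 called Upk3b of the urothelium and Hba-a1, Hba-a2 and Hbb-bs of the erythroid markers, all lower, and limma voom called 0. The medians were -2.23 for urothelium (-0.74 without WT UUO replicate 1 and -3.87 without Snail cKO UUO replicate 3) and -1.84 for erythroid markers, and none of the markers was at 0 in any of the 6 libraries. The 10 adipocyte genes had a median of -0.62, with Plin1, Lep, Retn and Cfd at 0 in at least 1 of the 6 libraries, and the 10 genes of RNA quality and stress -0.41 (-0.19 without Snail cKO UUO replicate 3), with none past the test in edgeR, DESeq2 or limma voom. Ratios below are log2 fold changes of Snail cKO UUO over WT UUO with their standard error (SE), from the quasi-likelihood test of edgeR, two-sided, and p-values were adjusted by Benjamini-Hochberg over all 21050 genes tested.

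Snai1, the targeted gene, had 165, 126 and 191 raw counts in Snail cKO UUO and 271, 276 and 196 in WT UUO kidneys. Its level was 1.98, 1.69 and 2.27 CPM in Snail cKO UUO and 3.20, 3.44 and 2.40 CPM in WT UUO kidneys, so the highest knockout library lay just below the lowest WT library. The difference of -0.61 ± 0.38 did not pass the test (adjusted p = 0.487), and it did not pass under any alternative tried (-0.74 to -0.49). Twist cKO UUO kidneys, in which Snai1 was not targeted, had 2.01 ± 0.189 CPM and Myc cKO UUO kidneys 1.32 ± 0.750 CPM (SD, n = 3), and unobstructed healthy kidneys 0.435 ± 0.183 CPM. The RNA came from whole kidney, so Snai1 transcripts of all cell types were counted together, and where and how completely the gene was deleted was not measured. For every gene in these samples, fewer cells of a type and less RNA per cell cannot be told apart.

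The promoters of the targeted gene, of 1 endothelial gene that fell, of 1 tubular gene that rose and of 1 gene near Snai1 that fell are shown to place the E-box that Snail can bind. Each covers 300 bases around the RefSeq start, 5′ to 3′ on the gene's strand (GRCm38.p6), with CAGGTG or its reverse complement CACCTG in capitals. They lie at chr2:167537945-167538244 (plus strand) for Snai1, chr14:31168592-31168891 (minus) for Stab1, chr6:55336049-55336348 (plus) for Aqp1 and chr2:163645094-163645393 (minus) for Serinc3.
Snai1: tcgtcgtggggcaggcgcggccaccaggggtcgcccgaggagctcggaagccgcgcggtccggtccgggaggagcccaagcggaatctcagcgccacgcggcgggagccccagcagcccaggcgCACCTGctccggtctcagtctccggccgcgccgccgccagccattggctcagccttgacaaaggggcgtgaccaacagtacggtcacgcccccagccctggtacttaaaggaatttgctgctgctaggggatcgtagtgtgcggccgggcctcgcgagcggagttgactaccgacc
Stab1: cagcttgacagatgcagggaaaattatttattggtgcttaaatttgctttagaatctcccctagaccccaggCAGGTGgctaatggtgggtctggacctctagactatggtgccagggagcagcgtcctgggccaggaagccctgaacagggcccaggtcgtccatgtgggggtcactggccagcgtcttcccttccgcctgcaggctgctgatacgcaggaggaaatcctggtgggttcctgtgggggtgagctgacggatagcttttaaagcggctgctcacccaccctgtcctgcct
Aqp1: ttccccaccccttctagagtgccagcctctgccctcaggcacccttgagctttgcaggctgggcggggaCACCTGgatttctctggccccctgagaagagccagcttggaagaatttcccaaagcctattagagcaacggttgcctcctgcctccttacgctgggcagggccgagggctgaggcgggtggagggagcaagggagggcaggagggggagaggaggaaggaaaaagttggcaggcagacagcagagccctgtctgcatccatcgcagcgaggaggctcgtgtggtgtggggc
Serinc3: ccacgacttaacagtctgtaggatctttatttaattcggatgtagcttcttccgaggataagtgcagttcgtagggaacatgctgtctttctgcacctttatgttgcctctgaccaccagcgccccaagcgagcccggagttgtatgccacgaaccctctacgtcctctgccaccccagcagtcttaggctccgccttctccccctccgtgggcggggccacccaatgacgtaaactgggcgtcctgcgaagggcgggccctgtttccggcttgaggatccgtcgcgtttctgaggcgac
The Snai1, Stab1 and Aqp1 promoters each held 1 match and the Serinc3 promoter none. Searched on both strands, the motif was in 20.2% of the 32851 promoters of the table. It was in 7 of 28 promoters of the genes that rose (25.0%) and in 4 of 24 promoters of the genes that fell (16.7%), against 19.2% over the genes tested. These promoters came from 19 of the 34 genes that rose and 15 of the 29 that fell. The other genes had no promoter to search, and some genes had more than 1.

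At an adjusted p under 0.05, 63 of 21050 genes differed between Snail cKO UUO and WT UUO kidneys (0.299%), of which 34 rose (0.162%) and 29 fell (0.138%). The genes that fell included genes of vessels, fibroblasts and cytokine signalling, and the genes that rose included transporters and enzymes of the proximal tubule. In all 63 genes the 2 groups did not overlap, which was also true of 24.9% of all genes tested. The median of all genes tested was -0.00, and 3130 genes (14.9%) had an unadjusted p under 0.05. DESeq2 called 773 of 30829 genes, a base that includes more low-count genes, and limma voom 181 of 21050. Counts of list members are to be read beside these shares. The count of 63 leaned on single libraries. It was 19, 33 and 30 without WT UUO replicate 1, 2 or 3. Without Snail cKO UUO replicate 1, 2 or 3 it was 19, 141 and 15. Of the 63 genes, 13 passed in all 6 of those fits (5 higher, 8 lower) and 8 in none. Without Myc cKO UUO replicate 3, a library that stood apart from its own group and enters this comparison only through scaling, filtering and the shared estimate of spread, 231 genes passed, among them all 63. With sex as a covariate 145 genes passed, again with all 63, and with Cre presence as a covariate 61, of which 40 were shared.

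**Figure D1:**
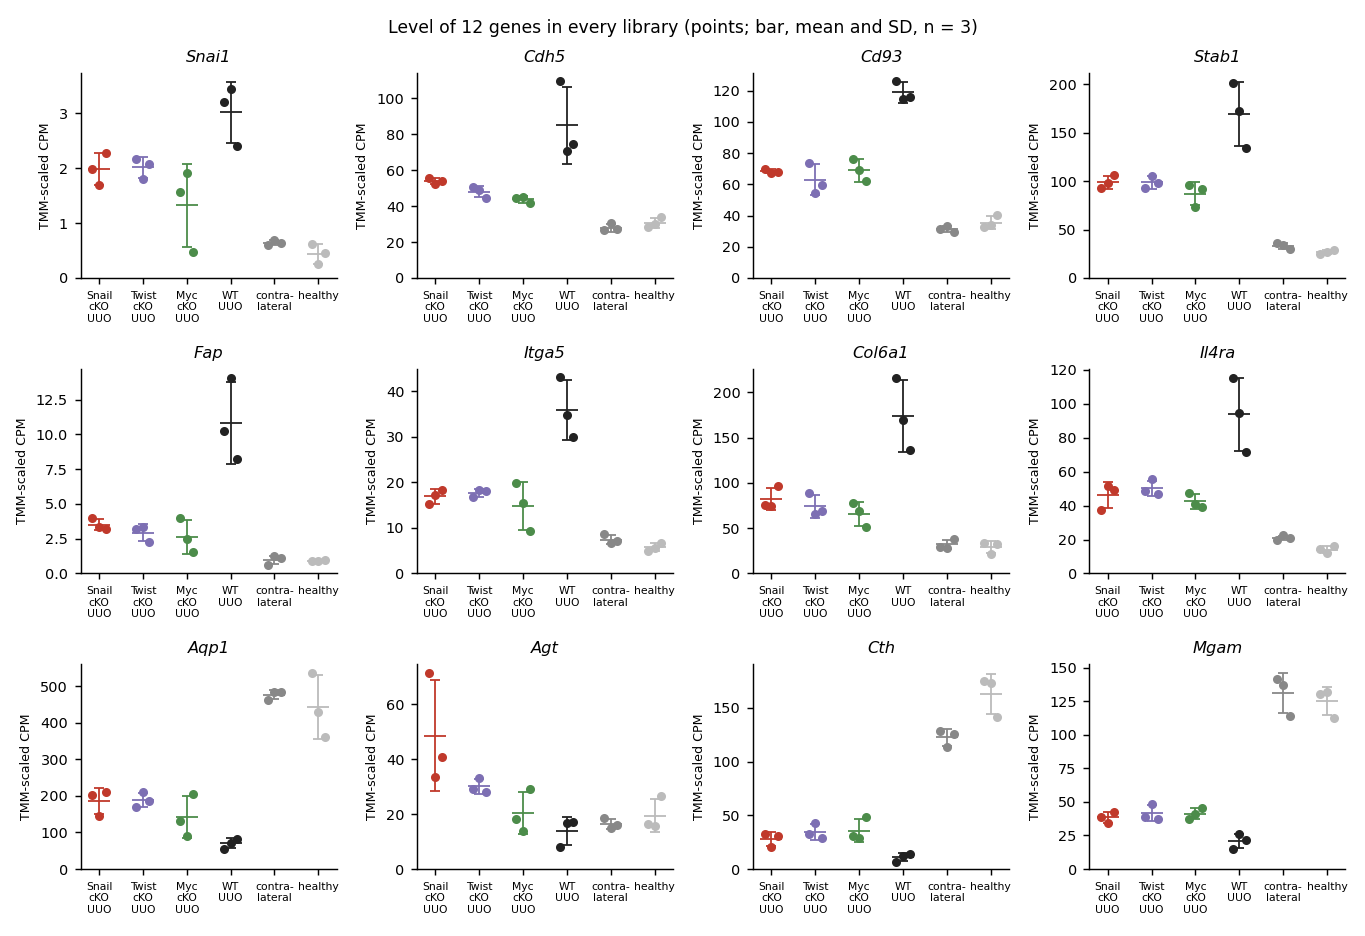
Level (TMM-scaled CPM, vertical axis) of 12 genes in each library of the 6 groups, with points for libraries and bars for the mean and SD (n = 3). Cd93, Stab1, Fap, Itga5, Col6a1 and Il4ra were lower, and Aqp1, Agt, Cth and Mgam higher, in every Snail cKO UUO library than in any WT UUO library. Snai1 (1.98 ± 0.293 CPM in Snail cKO UUO, 3.01 ± 0.549 CPM in WT UUO) and Cdh5 did not pass the test.

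Among vascular genes, Cd93 and Stab1 fell, while the 24 endothelial identity genes, chosen as markers of the cells that carry the Cre, held no gene past the test. Cd93, a C-type lectin receptor of endothelial and myeloid cells on chromosome 2 (148436640 to 148443563, mm10), had 70.1, 67.2 and 68.2 CPM in Snail cKO UUO against 126, 115 and 116 CPM in WT UUO kidneys. It fell by 0.80 ± 0.11 (adjusted p = 0.00661) and passed in 5 of the 6 fits without 1 library. Stab1, a scavenger receptor of sinusoidal endothelium and macrophages (chromosome 14, 31139013 to 31168641), had 92.6, 98.1 and 106 CPM in Snail cKO UUO against 201, 172 and 135 CPM in WT UUO kidneys. Its fall of 0.78 ± 0.13 (adjusted p = 0.0275) held in 2 of the 6 fits (adjusted p 0.00930 to 0.169). Both genes were thus lower in every knockout library than in any WT library, like all 29 genes that fell, with Cd93 nearly level within each group. Ptgis, the prostacyclin synthase of vessels and stroma, had 2.41, 2.43 and 3.32 CPM in Snail cKO UUO against 5.98, 8.06 and 4.57 CPM in WT UUO kidneys and fell by 1.19 ± 0.23 (adjusted p = 0.0426, 0.0307 to 0.187 without 1 library).

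The endothelial identity genes overlapped between the groups in summed level, at 939 to 977 CPM in Snail cKO UUO and 908 to 1211 CPM in WT UUO kidneys. Their median was -0.29, and 5 of 24 had a fitted value above 0. Cdh5, the VE-cadherin of endothelial junctions, had 55.8, 52.4 and 53.7 CPM in Snail cKO UUO against 110, 70.5 and 74.4 CPM in WT UUO kidneys. Its difference of -0.65 ± 0.13 lay just outside the threshold (adjusted p = 0.0559, 0.0428 to 0.193 without 1 library), and Cdh5 was the 1 gene of the list that passed with DESeq2 and with limma voom. The 2 groups did not overlap for Cdh5, and WT UUO replicate 1 was its highest library. Of the 24 genes, 8 had an unadjusted p under 0.05, against 14.9% of all genes tested. Without overlap, 4 were lower and 1 higher, against 12.2% and 12.8% of all genes tested. Pecam1, which encodes the endothelial adhesion protein CD31, differed by -0.42 ± 0.13 (adjusted p = 0.149). Kdr, the main receptor of VEGF in endothelium, differed by -0.20 ± 0.14 (adjusted p = 0.554), and its ligand gene Vegfa by 0.01 ± 0.16 (adjusted p = 0.985). None of the 13 VEGF and angiopoietin genes tested (median -0.20, and -0.10 without WT UUO replicate 1), the 7 vascular adhesion genes (median -0.33) or the 19 hypoxia-induced genes (median -0.10) passed in edgeR, DESeq2 or limma voom. Of these, 4, 2 and 2 genes had an unadjusted p under 0.05, against 14.9% of all genes tested. Hif1a, the oxygen-regulated transcription factor subunit, had 111, 114 and 111 CPM in Snail cKO UUO against 221, 114 and 125 CPM in WT UUO kidneys, where replicate 1 alone stood high (-0.45 ± 0.19, adjusted p = 0.279). Without WT UUO replicate 1 the median of the hypoxia-induced genes was 0.12 and that of the endothelial genes -0.12.

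The transcription factors of mesenchymal transition held no gene past edgeR's test, with a median of -0.49 over 10 genes. An unadjusted p under 0.05 was found for 4 of them, against 14.9% of all genes tested. With DESeq2 1 passed, Zeb1, and with limma voom 0. Zeb1, a repressor of epithelial genes, had 34.5, 37.8 and 35.7 CPM in Snail cKO UUO against 50.8, 51.6 and 46.0 CPM in WT UUO kidneys, 2 narrow groups without overlap (-0.46 ± 0.11, adjusted p = 0.0957). Its paralog Zeb2 differed by -0.11 ± 0.14 (adjusted p = 0.761). Snai2, which encodes Slug, had 3.71 ± 0.606 CPM in Snail cKO UUO and 5.30 ± 0.556 CPM in WT UUO kidneys (adjusted p = 0.412). Twist1, a basic helix-loop-helix factor of mesenchyme, had 1.56 ± 0.265 CPM in Snail cKO UUO and 2.59 ± 1.72 CPM in WT UUO kidneys, with a wide WT spread (adjusted p = 0.487).

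Fibroblast and matrix genes lay below their WT UUO level as groups, but 1 gene of each list passed. Fap, a cell-surface protease of activated fibroblasts (chromosome 2, 62500943 to 62574075), had 3.99, 3.35 and 3.21 CPM in Snail cKO UUO against 10.3, 14.0 and 8.20 CPM in WT UUO kidneys. It fell by 1.62 ± 0.31 (adjusted p = 0.0426, 0.0586 to 0.180 in the 6 fits without 1 library). Col6a1, a chain of collagen VI (chromosome 10, 76708792 to 76726168), had 76.1, 75 and 96.4 CPM in Snail cKO UUO against 216, 169.5 and 137 CPM in WT UUO kidneys and fell by 1.08 ± 0.21 (adjusted p = 0.0497, 0.0512 to 0.258). Itga5, the fibronectin-binding integrin subunit, had 15.2, 17.1 and 18.4 CPM in Snail cKO UUO against 43.0, 34.7 and 29.9 CPM in WT UUO kidneys and fell by 1.09 ± 0.21 (adjusted p = 0.0492, 0.0598 to 0.256). These 3 falls did not pass in any of the 6 fits without 1 library. No knockout library reached a WT library, which held for all 63 genes past the test and was a condition of the naming rule.

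All 30 extracellular matrix genes tested had a fitted value below 0 (median -0.97), of which 1 passed the test (Col6a1) and 14 were lower without overlap, against 12.2% of all genes tested. Col1a1, a chain of the fibrillar collagen that makes up scar tissue, had 476, 376 and 768 CPM in Snail cKO UUO against 1429, 1297 and 687 CPM in WT UUO kidneys. WT UUO replicate 3 thus lay inside the knockout range (-1.08 ± 0.50, adjusted p = 0.336). Col3a1 differed by -1.07 ± 0.47 (adjusted p = 0.302) and fibronectin, Fn1, by -0.58 ± 0.30 (adjusted p = 0.379). Timp1, an inhibitor of matrix proteases, had 12.7, 19.7 and 24 CPM in Snail cKO UUO against 55.6, 61.8 and 48.0 CPM in WT UUO kidneys, well apart yet not past the test (-1.55 ± 0.41, adjusted p = 0.113). Of 17 myofibroblast and pericyte genes (median -0.80) 1 passed, Fap. The smooth muscle actin Acta2 had 76.1, 88.9 and 92.0 CPM in Snail cKO UUO against 239, 252 and 89.4 CPM in WT UUO kidneys, again with WT UUO replicate 3 at the knockout level (-1.17 ± 0.49, adjusted p = 0.284). Vim, the intermediate filament of mesenchymal cells, had 114, 145 and 138 CPM in Snail cKO UUO against 322, 318 and 245 CPM in WT UUO kidneys (-1.16 ± 0.29, adjusted p = 0.0969). Without WT UUO replicate 1 the medians were -0.75 for matrix and -0.38 for myofibroblast genes. Without Myc cKO UUO replicate 3, 3 matrix genes and 2 myofibroblast genes passed, Timp1 and Vim among them. DESeq2 called 8 matrix and 2 myofibroblast genes, all lower, against 773 of 30829 over all genes. In summed level the erythroid markers too were lower in every Snail cKO UUO library than in any WT UUO library. In WT UUO replicates 1 to 3 the erythroid sums were 62.3, 74.3 and 85.3 CPM and the matrix sums 25606, 23927 and 19072 CPM. The urothelial sums overlapped between the groups, with WT UUO replicate 1 highest at 544 CPM. The part of either marker list in the result was not tested.

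**Figure D2:**
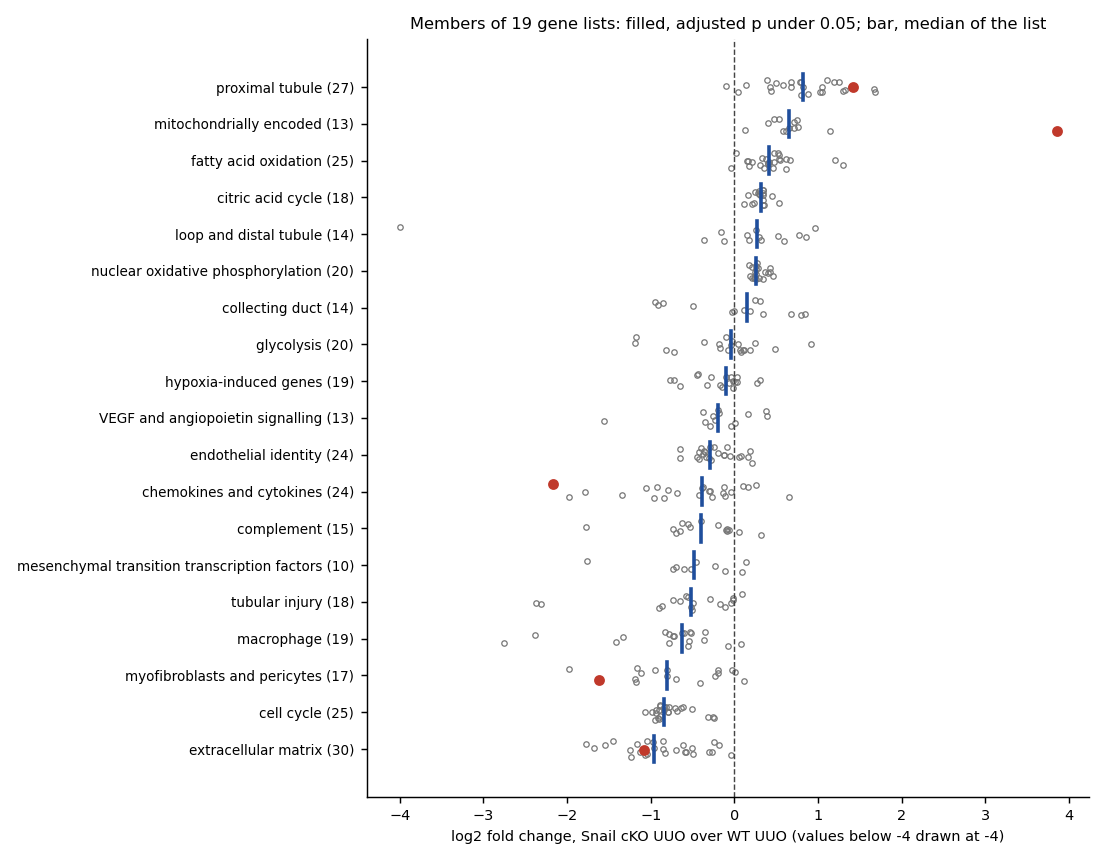
Log2 fold change of Snail cKO UUO over WT UUO kidneys (horizontal axis) for each gene tested of 19 gene lists (rows, number of genes in brackets). Circles are genes, filled where the adjusted p was under 0.05, and blue bars are the medians of the lists; the medians run between 0.82 for the proximal tubule and -0.97 for the extracellular matrix, and 5 genes are filled.

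Among immune genes Il4ra, Il11, C5ar2 and Pim1 fell. Il4ra, the receptor chain shared by interleukin 4 and interleukin 13 (chromosome 7, 125552120 to 125579474), had 37.6, 51.7 and 49.2 CPM in Snail cKO UUO against 115, 94.3 and 71.8 CPM in WT UUO kidneys. It fell by 1.02 ± 0.16 (adjusted p = 0.0124) and passed in 3 of the 6 fits without 1 library (0.00476 to 0.0792). Il11, a cytokine of the interleukin 6 family made by activated stromal cells, was low in both groups, with 19, 28 and 28 counts in Snail cKO UUO against 131, 78 and 138 in WT UUO kidneys (-2.16 ± 0.43, adjusted p = 0.0484, 0.0554 to 0.195). C5ar2, a receptor of the complement fragment C5a, had 30, 14 and 15 counts in Snail cKO UUO against 171, 314 and 155 in WT UUO kidneys (-3.42 ± 0.53, adjusted p = 0.0122, past the test in 5 of 6 fits). The gene of the other C5a receptor, C5ar1, lies beside it and differed by -1.77 ± 0.44 (adjusted p = 0.0969). Pim1, a kinase induced by cytokine signalling, had 7.95, 8.58 and 7.38 CPM in Snail cKO UUO against 16.8, 13.8 and 12.2 CPM in WT UUO kidneys and fell by 0.84 ± 0.14 (adjusted p = 0.0254, 0.0228 to 0.169).

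No macrophage gene passed edgeR's test among 19 (median -0.63), while 7 had an unadjusted p under 0.05, against 14.9% of all genes tested. DESeq2 called 3 and limma voom 2. Without overlap, 9 of the 19 were lower, against 12.2% of all genes tested. C1qa, a complement component made by macrophages, had 59.4, 92.0 and 68.4 CPM in Snail cKO UUO against 119, 149 and 96.4 CPM in WT UUO kidneys (adjusted p = 0.134). Arg1, an enzyme of alternatively activated macrophages, had 1.99, 1.17 and 2.76 CPM in Snail cKO UUO against 13.0, 16.3 and 10.7 CPM in WT UUO kidneys, wide apart in these libraries (-2.76 ± 0.69, adjusted p = 0.104). The 9 neutrophil genes had a median of -0.94, the 24 chemokine and cytokine genes -0.38 with Il11 alone past the test, and the 15 complement genes -0.40 (-0.15 without WT UUO replicate 1 and -0.11 without Snail cKO UUO replicate 1). In the neutrophil and complement lists 2 and 4 genes had an unadjusted p under 0.05, against 14.9% of all genes tested, and none passed edgeR's test. DESeq2 called Mmp8, a collagenase of neutrophils, and C1qa and C5ar1 of the complement list, all lower, and limma voom C5ar1. Of the cytokine list DESeq2 also called Il33 lower. The 18 interferon-stimulated genes had a median of -0.24, the 18 genes of T and B cells 0.04, the 21 genes of MHC class I 0.01 and the 11 genes of MHC class II 0.31, with no gene past edgeR's test in these lists and 2, 0, 1 and 0 at an unadjusted p under 0.05. DESeq2 called 1 gene in them, the class I gene H2-Q7, lower, and limma voom 0. The median of MHC class II was 0.03 without Snail cKO UUO replicate 2, and leaving out WT UUO replicate 2 or 1 gave 0.58 and 0.20.

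Genes of cell division lay below their WT level as a group, with no gene of the list past edgeR's test. Of the 25, 21 had an unadjusted p under 0.05, against 14.9% of all genes tested. DESeq2 called 7 and limma voom 4, all lower, against 773 of 30829 and 181 of 21050 over all genes. All 25 had a fitted value below 0 (median -0.84), and 22 of 25 did not overlap, against 12.2% of all genes tested that were lower without overlap. Ccna2, the cyclin of DNA replication, had 6.40, 9.14 and 8.89 CPM in Snail cKO UUO against 14.2, 17.9 and 14.6 CPM in WT UUO kidneys (-0.94 ± 0.22, adjusted p = 0.0846). Rrm2, which supplies deoxynucleotides, had 5.04, 8.25 and 8.82 CPM in Snail cKO UUO against 13.3, 14.0 and 12.3 CPM in WT UUO kidneys (-0.84 ± 0.19, adjusted p = 0.0779). In both genes every knockout library lay below every WT library. Outside the list, 2 histone genes transcribed during DNA replication fell, Hist1h2bm by 3.0 ± 0.31 (adjusted p = 0.000313, past the test in all 6 fits) and Hist1h2bn by 2.77 ± 0.46 (adjusted p = 0.0214). Hist1h2bm had 0.443, 0.978 and 0.881 CPM in Snail cKO UUO against 5.70, 7.71 and 4.99 CPM in WT UUO kidneys. Histone genes have near-identical copies, so how the authors' counting split their reads is uncertain. The spindle-associated gene Fam83d fell by 1.46 ± 0.27 (adjusted p = 0.0412, 0.0307 to 0.180 without 1 library), with 0.587, 0.925 and 1.04 CPM in Snail cKO UUO against 2.32, 3.06 and 1.65 CPM in WT UUO kidneys.

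Other genes that fell were Grb10, an adaptor that binds the insulin receptor, with 82.8, 78.8 and 80.6 CPM in Snail cKO UUO against 123, 129.5 and 109 CPM in WT UUO kidneys (-0.58 ± 0.09, adjusted p = 0.00979), and the imprinted gene Mest (-1.28 ± 0.23, adjusted p = 0.0320). Ero1lb, an oxidase of the endoplasmic reticulum, had 3.88, 8.08 and 3.54 CPM in Snail cKO UUO against 11.6, 12.2 and 11.6 CPM in WT UUO kidneys (-1.19 ± 0.22, adjusted p = 0.0412). Its knockout replicate 2 lay between the other 2 knockout libraries and the WT group. The adhesion receptor gene Gpr123 fell by 1.87 ± 0.31 (adjusted p = 0.0290) and the kinase gene Map4k4 by 0.45 ± 0.08 (adjusted p = 0.0412). Of these 5, Grb10 and Gpr123 passed in 2 of the 6 fits without 1 library, Mest and Ero1lb in 1 and Map4k4 in 0.

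The genes that rose included transporters and enzymes of the proximal tubule. Aqp1, the water channel of the proximal tubule and thin limb (chromosome 6, 55336432 to 55348555), had 203, 145 and 212 CPM in Snail cKO UUO against 55.4, 71.5 and 82.9 CPM in WT UUO kidneys. It rose by 1.42 ± 0.25 (adjusted p = 0.0284, 0.0175 to 0.169 without 1 library). Every knockout library lay above every WT library, as for all 34 genes that rose. Healthy kidneys had 442 ± 87.6 CPM of Aqp1 (SD, n = 3), above both obstructed groups. Aqp7, a channel for water and glycerol, had 12.2, 7.66 and 14.2 CPM in Snail cKO UUO against 4.56, 5.70 and 4.88 CPM in WT UUO kidneys (1.17 ± 0.22, adjusted p = 0.0426). Slc28a1, a nucleoside transporter, had 2.80, 1.53 and 3.75 CPM in Snail cKO UUO against 0.508, 0.736 and 0.758 CPM in WT UUO kidneys (2.01 ± 0.36, adjusted p = 0.0329). Slc23a1, a vitamin C transporter, had 100.2, 57.8 and 87.4 CPM in Snail cKO UUO against 24.2, 40.7 and 41.6 CPM in WT UUO kidneys (1.20 ± 0.24, adjusted p = 0.0484). In all 4 genes the lowest knockout library was replicate 2, which read as female. The highest WT library was replicate 2, which read as male, for Aqp7, and replicate 3, which read as female, for Aqp1, Slc28a1 and Slc23a1. Each group held 1 library of its rarer sex, and the part of sex in these levels was not tested.

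Mgam, a sugar-splitting enzyme of brush borders, had 38.9, 34.3 and 42.4 CPM in Snail cKO UUO against 15, 25.8 and 21.6 CPM in WT UUO kidneys (0.89 ± 0.17, adjusted p = 0.0412). Cth, which makes cysteine and hydrogen sulfide, had 32.9, 20.5 and 31.0 CPM in Snail cKO UUO against 6.87, 12.5 and 13.8 CPM in WT UUO kidneys (1.34 ± 0.26, adjusted p = 0.0479). Agt, the precursor of angiotensin, had 71.3, 33.5 and 40.8 CPM in Snail cKO UUO against 8.06, 16.6 and 17.0 CPM in WT UUO kidneys (1.8 ± 0.34, adjusted p = 0.0426). Its knockout level of 48.5 ± 20.05 CPM stood beside 19.4 ± 6.03 CPM in healthy kidneys (SD, n = 3 each). Baiap2l2, a membrane-shaping protein of kidney and gut epithelium, rose by 1.05 ± 0.20 (adjusted p = 0.0424), and Serpina1f, of the serpin family, by 1.81 ± 0.32 (adjusted p = 0.0333). Mettl7a2 had 53.2, 16.7 and 25.3 CPM in Snail cKO UUO against 4.82, 5.22 and 5.38 CPM in WT UUO kidneys (2.63 ± 0.48, adjusted p = 0.0398), and it has close relatives in the same gene cluster, so its count is uncertain. Fgfr3, a receptor of fibroblast growth factors in epithelium, had 22.3, 17.7 and 25.2 CPM in Snail cKO UUO against 12.1, 14.2 and 12.2 CPM in WT UUO kidneys (0.76 ± 0.13, adjusted p = 0.0291). Amt, of the glycine cleavage system, rose by 0.70 ± 0.13 (adjusted p = 0.0426) and Acad12, of the acyl-CoA dehydrogenase family, by 0.58 ± 0.11 (adjusted p = 0.0412). Of these rises from Aqp1 to Acad12, none passed in more than 2 of the 6 fits without 1 library.

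Over the proximal tubule list, 26 of 27 genes had a fitted value above 0 (median 0.82), 1 passed (Aqp1) and 7 were higher without overlap, against 12.8% of all genes tested. DESeq2 called 5, all higher, and limma voom 1. The endocytic receptor Lrp2 had 1070.2, 918 and 1421 CPM in Snail cKO UUO against 416, 874 and 840.3 CPM in WT UUO kidneys, apart from each other but not past the test (0.68 ± 0.27, adjusted p = 0.256). The phosphate transporter Slc34a1 overlapped, with 153, 144 and 305 CPM in Snail cKO UUO against 39.8, 239 and 121 CPM in WT UUO kidneys (adjusted p = 0.658). WT UUO replicate 1 was the lowest of the 6 for both genes, and without it the list's median was 0.56. No gene passed edgeR's test in the 14 genes of the loop and distal tubule (median 0.27), the 14 of the collecting duct (0.15), the 10 of the podocyte (0.07) or the 18 of tubular injury (-0.51). An unadjusted p under 0.05 was found for 3, 3, 2 and 9 of them, against 14.9% of all genes tested. DESeq2 called Cldn10 and Cldn19, claudins of the loop, and Hsd11b2 of the collecting duct higher, and Pvalb, Krt19 and Plaur lower, while limma voom called Plaur alone. Pvalb, the parvalbumin of the distal tubule, was at 0 in the 3 Snail cKO UUO libraries and at 0.110 ± 0.170 CPM in WT UUO kidneys (SD, n = 3), too few counts for a fold. These medians moved with single libraries: the loop list had 0.06 without WT UUO replicate 1 and 0.74 without WT UUO replicate 3, and tubular injury -0.26 without WT UUO replicate 1. The collecting duct list had 0.06 and 0.33 without WT UUO replicate 2 or 3 and 0.05 and 0.23 without Snail cKO UUO replicate 2 or 3. The injury markers Havcr1 and Lcn2, which encode KIM-1 and NGAL, differed by -0.11 ± 0.99 (adjusted p = 0.977) and -0.50 ± 0.23 (adjusted p = 0.336). The 18 genes known to differ by sex in kidney had a median of 1.08 (0.60 without Snail cKO UUO replicate 1), and of 0.29 with sex as a covariate. The 63 genes above all passed with that covariate, but the part of sex in their differences was not tested.

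Genes of mitochondrial metabolism lay above their WT level with small differences. All 20 nuclear genes of oxidative phosphorylation (median 0.26, 17 without overlap) and all 18 of the citric acid cycle (median 0.32, 14 without overlap) had a fitted value above 0, as did 24 of 25 of fatty acid oxidation (median 0.41, 15 without overlap). None of them passed in edgeR, with 4, 3 and 12 at an unadjusted p under 0.05, against 14.9% of all genes tested. DESeq2 called 1, Acaa1b, and limma voom 0, and 12.8% of all genes were higher without overlap. Ndufb8, a complex I subunit, had 64.3, 59.8 and 63.3 CPM in Snail cKO UUO against 42.7, 48.7 and 48.5 CPM in WT UUO kidneys (0.42 ± 0.16, adjusted p = 0.233). Acaa1b, a peroxisomal thiolase, had 20.1, 10.2 and 27.7 CPM in Snail cKO UUO against 8.39, 8.52 and 8.25 CPM in WT UUO kidneys (1.21 ± 0.40, adjusted p = 0.189), with the knockout libraries far more spread than the WT libraries. The 20 glycolytic genes had a median of -0.04, and Hk2, a hexokinase, differed by -1.19 ± 0.34 (adjusted p = 0.133). In that list DESeq2 called Hk2 and Pkm, a pyruvate kinase, both lower, and limma voom called 0. Myc, the regulator of growth that the study placed in tubular cells, had 24.7, 22.1 and 15.3 CPM in Snail cKO UUO against 22.1, 23.8 and 21.8 CPM in WT UUO kidneys (-0.12 ± 0.23, adjusted p = 0.855). No gene passed edgeR's test among the 23 genes that Myc induces (median -0.15, 4 at an unadjusted p under 0.05) or the 13 of the Myc network (median -0.11, 1 at an unadjusted p under 0.05). DESeq2 called 1 gene of the network higher, Mlxipl, which encodes the carbohydrate-responsive factor ChREBP and also passed in edgeR without Snail cKO UUO replicate 2, and limma voom called 0 in both lists. Without WT UUO replicate 2 the median of the induced genes was -0.09, and without WT UUO replicate 1 that of the network was -0.05. The 22 genes of TGF-beta and BMP signalling, which drives fibroblast activation, had a median of -0.12, with none past the test in edgeR, DESeq2 or limma voom and 9 at an unadjusted p under 0.05. Their median became -0.08 with WT UUO replicate 1 left out and -0.07 with Snail cKO UUO replicate 3 left out.

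All 13 mitochondrially encoded genes tested had a fitted value above 0 (median 0.65), and 11 were higher without overlap, against 12.8% of all genes tested, but 1 passed. mt-Nd3, a complex I subunit (mitochondrial positions 9459 to 9806), rose by 3.85 ± 0.48 (adjusted p = 0.00254) and passed in all 6 fits without 1 library. It had 264, 195 and 289 counts in Snail cKO UUO against 14, 19 and 19 in WT UUO kidneys, and 3.16, 2.61 and 3.44 CPM in Snail cKO UUO against 0.166, 0.237 and 0.232 CPM in WT UUO kidneys. Against Twist cKO UUO kidneys, at 0.558 ± 0.170 CPM, it was higher by 2.45 ± 0.45 (adjusted p = 0.0400). Its neighbours in complex I had smaller differences: mt-Nd2 had 502, 409 and 456 CPM in Snail cKO UUO against 240.3, 342 and 256 CPM in WT UUO kidneys (0.71 ± 0.23, adjusted p = 0.187), and mt-Nd5 differed by 0.65 ± 0.23 (adjusted p = 0.217). In all 6 libraries mt-Nd3 lay far below mt-Nd2 in CPM, so its fold rests on few counts and is uncertain. The part of strain background in it was not tested. The share of mitochondrial ribosomal RNA was also higher in Snail cKO UUO, as given above, and its part in the result was not tested.

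Obstruction-responsive genes were taken from Twist cKO UUO and Myc cKO UUO against healthy kidneys, libraries with none in common with the comparison. They were past the test and at least 2-fold apart there. The 3073 genes that were higher in obstruction had a median of -0.28 in Snail cKO UUO over WT UUO, and 73.5% were below 0, with 15 past the test lower and 1 higher. Over all 21050 genes tested, 0.138% were past the test lower and 0.162% higher, and 49.3% had a fitted value above 0. Set against the mean of the WT libraries, the median of these genes was -0.31, -0.18 and -0.32 in the Snail cKO UUO libraries and 0.04, 0.06 and -0.11 in the WT UUO libraries. The 1947 genes that were lower in obstruction had a median of 0.41, and 84.2% were above 0, with 21 past the test higher and 1 lower. Their per-library medians were 0.43, 0.22 and 0.53 in Snail cKO UUO kidneys, against -0.16, 0.10 and 0.06 in WT UUO kidneys. In both sets all 3 Snail cKO UUO libraries lay on the side of the unobstructed level, beyond every WT library, and replicate 2 lay nearest to the WT group. The Twist and Myc cKO UUO libraries, which set the lists, lay on that side too (-0.24 to -0.84 and 0.39 to 0.96). The shift was thus not particular to Snail cKO UUO kidneys. On the first principal component of all libraries, which held 54.3% of the variance, the Snail cKO UUO libraries scored 53.1 to 71.2 and the WT UUO libraries 78.4 to 110.3. Twist cKO UUO libraries scored 30.9 to 45.6 there and Myc cKO UUO libraries -4.80 to 60.3.

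**Figure D3:**
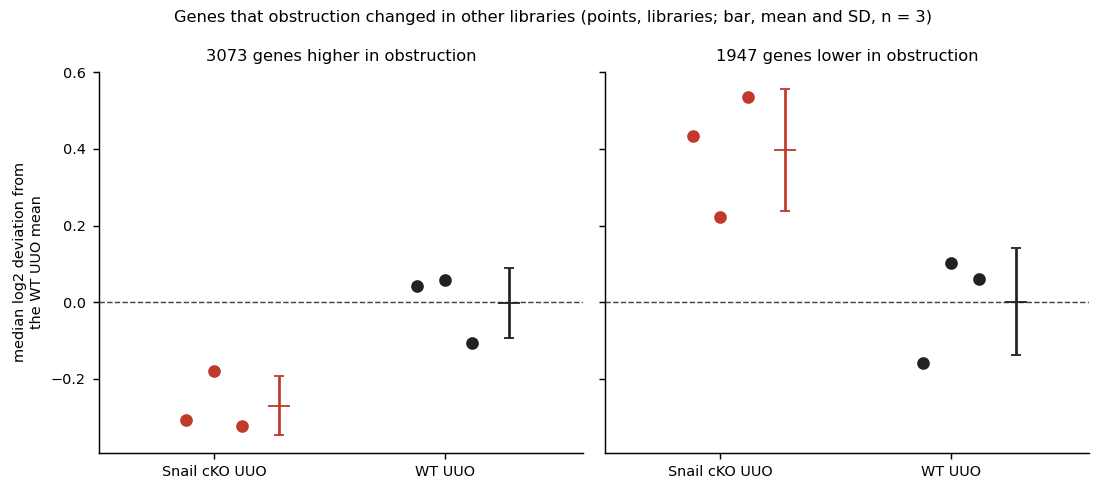
Median log2 deviation from the WT UUO mean (vertical axis) in each Snail cKO UUO and WT UUO library, over the 3073 genes higher and the 1947 genes lower in obstruction, as set by other libraries. Points are libraries and bars the mean and SD (n = 3); the Snail cKO UUO libraries lie at -0.18 or below in the first set and at 0.22 or above in the second, beyond all WT UUO libraries.

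Genes near Snai1 on chromosome 2, where the floxed allele lies, were examined next. Within 20 Mb of Snai1, 6 of 451 genes tested passed (1.33%, against 0.299% over all genes), and all 6 fell: Cd93, Fam83d, 0610039K10Rik, Serinc3, Pkig and Ptgis. Within 10 Mb it was 5 of 210 (2.38%). Within 20 Mb of Twist1 on chromosome 12, the targeted gene of the line that the WT mice came from, it was 0 of 137 in edgeR. An unadjusted p under 0.05 was found for 65 of the 451 genes around Snai1 (14.4%) and 30 of the 137 around Twist1 (21.9%), against 14.9% over all genes. Within the same 20 Mb, DESeq2 called 25 of the 451 genes around Snai1 and 9 of the 137 around Twist1. Over all genes it called 773 of 30829. That base includes low-count genes that were left out of the 451 and the 137, so these shares are not directly comparable. With limma voom, 6 of the 451 and 3 of the 137 were called, against 181 of 21050 over all genes. Serinc3, which encodes a membrane protein of the serine incorporator family (chromosome 2, 163623272 to 163645131, minus strand), had 236, 271 and 201 CPM in Snail cKO UUO against 551, 496 and 520.2 CPM in WT UUO kidneys. It fell by 1.15 ± 0.15 (adjusted p = 0.00392, past the test in all 6 fits), and each of the other 15 libraries, of every group, had at least 399.6 CPM. 0610039K10Rik, an antisense transcript across the start of Serinc3 (163644850 to 163645801, plus strand), had 17, 15 and 14 counts in Snail cKO UUO against 124, 91 and 98 in WT UUO kidneys and fell by 2.72 ± 0.28 (adjusted p = 0.000313). The strand setting of the counting is not given in the sources used here, so reads of this pair may have been exchanged. Pkig, an inhibitor of protein kinase A just beyond the start of Serinc3 (163658386 to 163726158), had 13.7, 15.4 and 13.0 CPM in Snail cKO UUO against 22.3, 24.9 and 24.8 CPM in WT UUO kidneys and fell by 0.77 ± 0.10 (adjusted p = 0.00254). These 3 adjacent genes also differed from Twist cKO UUO kidneys (-1.01 ± 0.15, -2.56 ± 0.28 and -0.61 ± 0.10), whereas Cd93, 19.1 Mb from Snai1, did not pass there (0.13 ± 0.11, adjusted p = 0.943). Deletion of Snail, the alleles linked to it and strain background cannot be told apart at this locus.

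**Figure D4:**
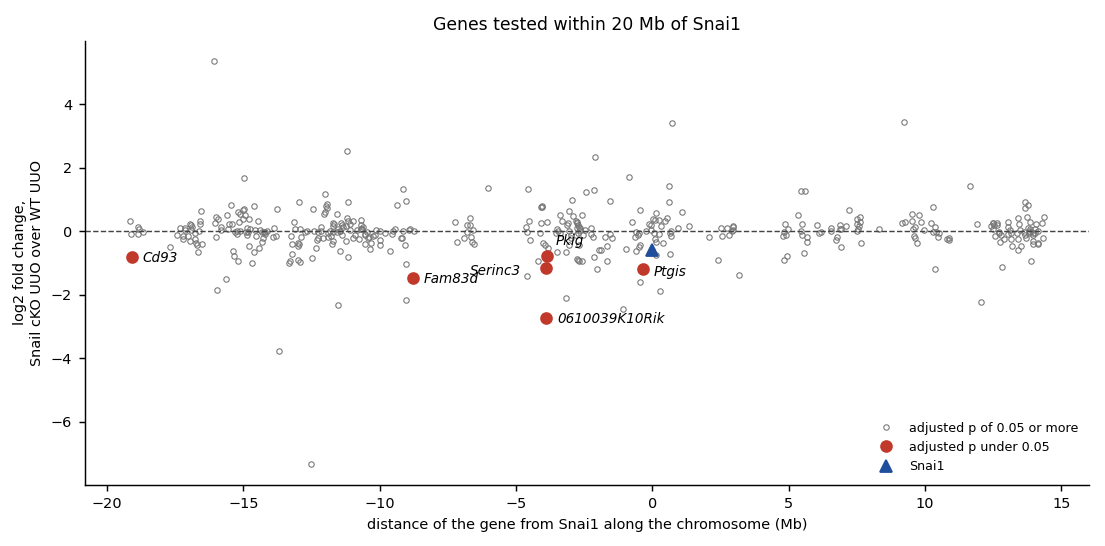
Log2 fold change of Snail cKO UUO over WT UUO kidneys (vertical axis) for the 451 genes tested within 20 Mb of Snai1, by their distance from Snai1 in Mb (horizontal axis). The 6 filled red points passed the test and all lie below 0; Snai1 itself, the triangle, did not pass.

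The ribosomal protein gene Rps3a1 and its copy Rps3a3 moved in opposite directions. Rps3a3, annotated as a processed pseudogene (chromosome 13, 108670603 to 108671397), had 3176, 7432 and 6489 counts in Snail cKO UUO against 115, 103 and 67 in WT UUO kidneys and rose by 5.95 ± 0.40 (adjusted p = 2.86e-06). Rps3a1 (chromosome 3, 86137940 to 86142702) had 12140, 6137 and 5474 counts in Snail cKO UUO against 23694, 19199 and 20150 in WT UUO kidneys and fell by 1.39 ± 0.20 (adjusted p = 0.00945). Both passed in all 6 fits without 1 library and differed from Twist cKO UUO and Myc cKO UUO kidneys as well. Their transcripts in the GENCODE M21 reference were 98.9% identical, with 9 differences over 795 aligned bases. The stretch from aligned base 172 to 261 shows how alike they are, with the 2 differing bases of this stretch in capitals.
Rps3a1: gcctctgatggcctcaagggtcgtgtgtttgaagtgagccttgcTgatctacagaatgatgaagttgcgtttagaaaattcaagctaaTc
Rps3a3: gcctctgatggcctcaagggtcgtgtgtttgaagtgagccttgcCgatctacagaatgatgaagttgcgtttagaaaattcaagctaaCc
Of the 721 windows of 75 bases in Rps3a3, the length of 1 read, 231 (32.0%) also occurred in Rps3a1, so the split of reads between the 2 genes is uncertain. The summed level of the pair was 169 ± 23.2 CPM in Snail cKO UUO and 256 ± 21.9 CPM in WT UUO kidneys (SD, n = 3 each; exact permutation test, p = 0.1, two-sided, the smallest possible). Rps3a3 made up 20.7%, 54.8% and 54.2% of it in Snail cKO UUO against 0.483%, 0.534% and 0.331% in WT UUO kidneys, and replicate 1 stood apart from the other 2 knockout libraries.

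**Figure D5:**
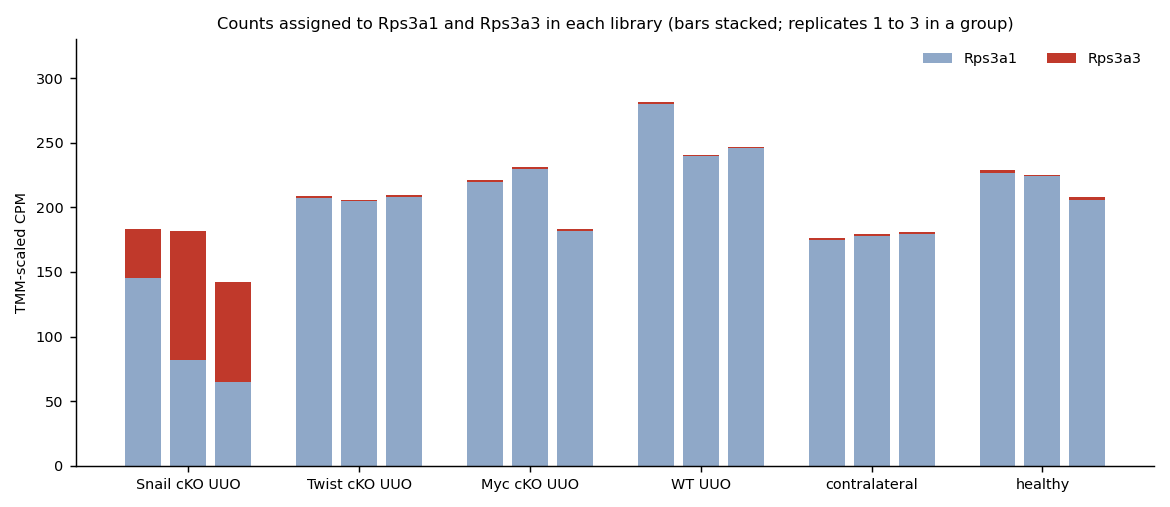
Level (TMM-scaled CPM, vertical axis) assigned to Rps3a1 and Rps3a3, stacked, in each of the 18 libraries by group, with 1 bar per library. Rps3a3 takes 20.7% to 54.8% of the bar in the 3 Snail cKO UUO libraries and 0.331% to 0.534% in the WT UUO libraries.

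Small or predicted genes made up much of the rest of the 13 that passed in all 6 fits. Gm22513, annotated as a small nuclear RNA on chromosome 12 (54696782 to 54696945), had 19, 18 and 12 counts in Snail cKO UUO against 3056, 1572 and 2893 in WT UUO kidneys (-7.21 ± 0.39, adjusted p = 2.82e-07). Gm22973, also a small nuclear RNA, fell by 4.46 ± 0.43 (adjusted p = 0.000224) and the pseudogene Gm4735 by 4.59 ± 0.61 (adjusted p = 0.00409), while the small nuclear RNA Gm25360 rose by 1.48 ± 0.19 (adjusted p = 0.00314) and the pseudogene Gm2223 by 2.69 ± 0.32 (adjusted p = 0.00135). These are members of multicopy families, so their counts are uncertain. Chn2, which encodes the Rac-inactivating protein beta-chimaerin (chromosome 6, 54039554 to 54301810), had 19.4, 18.9 and 17.1 CPM in Snail cKO UUO against 10.6, 10.3 and 11.6 CPM in WT UUO kidneys and rose by 0.77 ± 0.11 (adjusted p = 0.00521).

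The difference of Snail cKO UUO kidneys from the other endothelial knockout was tested as a contrast of its own in the fit over all 18 libraries, so the WT libraries entered it only through scaling, filtering and the shared estimate of spread. Against Twist cKO UUO kidneys 36 of 21050 genes passed (0.171%), 18 higher and 18 lower (0.0855% each). With only these 2 groups in the fit 56 passed, of which 23 were shared. Of the 63 genes above, 18 were among the genes that differed from Twist cKO UUO kidneys and 45 were not. Both contrasts use the Snail cKO UUO libraries, on which the 63 genes were also chosen, so this overlap is not independent. The same holds for the overlap with Myc cKO UUO below. Aqp1 had 187 ± 36.1 CPM in Snail cKO UUO and 189 ± 19.9 CPM in Twist cKO UUO kidneys (difference -0.02 ± 0.24, adjusted p = 0.999), Stab1 had 98.9 ± 6.73 CPM in Snail cKO UUO and 98.7 ± 6.50 CPM in Twist cKO UUO kidneys (0.00 ± 0.13, adjusted p = 0.999), and Itga5 had 16.9 ± 1.62 CPM in Snail cKO UUO and 17.7 ± 0.898 CPM in Twist cKO UUO kidneys (-0.07 ± 0.21, adjusted p = 0.995). A p that misses the threshold does not show that they were alike, and the knockouts' comparisons with WT UUO share the WT libraries. Snai1 itself differed by -0.02 ± 0.38 between Snail and Twist cKO UUO kidneys (adjusted p = 0.999). Twist1 had 1.56 ± 0.265 CPM in Snail cKO UUO and 0.427 ± 0.151 CPM in Twist cKO UUO kidneys (1.86 ± 0.48, adjusted p = 0.264).

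Beyond those shared with the WT comparison, named genes that differed from Twist cKO UUO kidneys lay in part on chromosome 12, which also carries Twist1. Zfp125, a zinc-finger pseudogene on chromosome 12 (20877084 to 20921262), had 3.29 ± 0.260 CPM in Snail cKO UUO and 0.282 ± 0.0793 CPM in Twist cKO UUO kidneys (3.53 ± 0.44, adjusted p = 0.00187). It had 3.22 ± 0.750 CPM in WT UUO kidneys. Greb1, an oestrogen-regulated gene on the same chromosome, had 2.97 ± 0.530 CPM in Snail cKO UUO and 17.1 ± 1.62 CPM in Twist cKO UUO kidneys (-2.53 ± 0.45, adjusted p = 0.0400). Iah1, an esterase gene of chromosome 12, differed by -1.30 ± 0.19 (adjusted p = 0.00695). On other chromosomes, the sugar kinase gene Fggy had 23.7 ± 2.62 CPM in Snail cKO UUO and 50.3 ± 4.09 CPM in Twist cKO UUO kidneys (-1.09 ± 0.15, adjusted p = 0.00459). Ece1, which activates endothelin and is made by endothelial cells, had 77.8 ± 5.90 CPM in Snail cKO UUO and 123 ± 6.74 CPM in Twist cKO UUO kidneys (-0.66 ± 0.10, adjusted p = 0.0110). Ece1 in WT UUO kidneys was 111 ± 15.2 CPM, and the difference of Snail cKO UUO from it lay just outside the threshold (-0.51 ± 0.10, adjusted p = 0.0523, 0.0306 to 0.271 without 1 library). Within 20 Mb of Twist1, 8 of 137 genes differed between the 2 endothelial knockouts by edgeR's test (5.84%, against 0.171% over all genes). Within 10 Mb it was 0 of 75, so the 8 genes lay farther than 10 Mb from Twist1. Of the 75 genes, 14 had an unadjusted p under 0.05. DESeq2 called 3 of them, and 152 of 30829 over all genes, a base that includes low-count genes left out of the 75. With limma voom 0 of them were called, against 41 of 21050 over all genes.

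Against the tubular knockout, Myc cKO UUO, 515 genes passed (2.45%), 405 higher (1.92%) and 110 lower (0.523%), and 22 of the 63 genes were among them. This count depended on the libraries: it was 57 without Snail cKO UUO replicate 1, 91 without Snail cKO UUO replicate 3, and 153 and 261 without Myc cKO UUO replicate 2 and 3. Serinc3 had 236 ± 35.1 CPM in Snail cKO UUO and 582 ± 76.7 CPM in Myc cKO UUO kidneys (-1.30 ± 0.15, adjusted p = 0.000866). The Snail and Myc lines have the same strain mix per the labels but differ in Cre and floxed gene, and the part of each was not tested. Rps3a3 was higher in Snail cKO UUO than in Myc cKO UUO kidneys by 5.50 ± 0.39 (adjusted p = 6.19e-06) and Gm22513 differed by -6.77 ± 0.38 (adjusted p = 5.71e-07). These 3 genes thus set the Snail cKO UUO libraries apart from the obstructed kidneys of all 3 other groups.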

How the data were processed

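The deposited raw counts per gene symbol were used. The authors used bcl2fastq 1.8.4, the genome build mm10, HTSeq and DESeq2, per the submitters' processing notes. The aligner, annotation and counting strand were not given in the sources used here. Per the labels, TRIzol RNA from a piece of each frozen kidney was made into stranded whole-transcriptome libraries, read as 2 reads of 75 bases. The table held 31787 symbols, of which 958 had no count, and 6 of its 24 columns matched no sample and were not used. Replicates are numbered in the order of the records. The deposited normalized values were not used.

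The count test was that of edgeR 4.0.16 under R 4.3.3 (filterByExpr, TMM, robust quasi-likelihood fit over 18 libraries, 1 mean per group, 12 residual degrees of freedom, adjusted p under 0.05). Levels are CPM with the SD. Positions and transcripts came from GENCODE M21, which matched 92.1% of symbols, and promoters from RefSeq. Alternatives used limma 3.58.1, DESeq2 1.42.0, other scalings, filters, covariates and left-out libraries. The fit was tested on simulated data.

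The members, lists and naming rule were chosen with earlier results of these data known, and lists got no test. The rule names the 12 genes with the largest rises and the 12 with the largest falls past the test. It adds up to 6 genes in each direction against Twist cKO UUO. These genes had a mean log2 CPM no lower than 1 and no overlap between the 2 groups compared, with predicted genes left out. The rule also names Myc and the transition factors, up to 4 members of each of 37 lists with the smallest p, and 13 set markers. Called genes named beside these, such as Cd93, Stab1, Pkig, C5ar2, Grb10, Fgfr3, the predicted genes and list members called by DESeq2 or limma voom alone, were chosen after their values were seen.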

Additional observations from a re-analysis of the deposited data

Results flagged for a closer look

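For 17 of the genes named, the difference from WT UUO kidneys was not the same in Snail cKO UUO and Twist cKO UUO kidneys, by edgeR's test of Snail cKO UUO against Twist cKO UUO (adjusted p under 0.05), a contrast in the fit over all 18 libraries, which the WT UUO libraries enter through scaling, filtering and the shared estimate of spread. The naming rule takes up to 6 genes in each direction from this same contrast, so the count of 17 was partly set by that choice. Over all genes tested, 0.171% passed it. With only these 2 groups in the fit, 15 of the 17 passed, and Rps3a1 and Pkig did not. The log2 differences of Snail cKO UUO over Twist cKO UUO were 6.00 for Rps3a3, 3.53 for Zfp125, 3.03 for Gm2223, 2.46 for Gm25360, 2.45 for mt-Nd3 and 0.72 for Chn2. They were -8.07 for Gm22513, -5.19 for Gm4735, -4.08 for Gm22973, -2.56 for 0610039K10Rik, -2.53 for Greb1, -1.30 for Iah1, -1.09 for Fggy, -1.08 for Rps3a1, -1.01 for Serinc3, -0.66 for Ece1 and -0.61 for Pkig. Zfp125, Greb1 and Iah1 lie on chromosome 12, as does Twist1, and 0610039K10Rik, Serinc3 and Pkig lie on chromosome 2 near Snai1. The groups compared also differ in strain background, so line and genotype cannot be told apart for any of them.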

How the results depend on the processing

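No paired analysis was possible because replicate numbers were given in record order only and pair no samples. The 63 genes changed against WT UUO became 773 with DESeq2 (60 shared) and 181 with limma voom (58 shared, 37.0% of the calls higher). They became 11 with only the 2 groups compared, 10 with a 2-fold minimum and 145 with the sex covariate. Leaving out 1 obstructed library in turn gave 15 to 231 (30 without Twist cKO UUO replicate 1 and 39 without replicate 2). Healthy and contralateral libraries were not left out. The 36 genes that differed from Twist cKO UUO became 152 with DESeq2, 56 with 2 groups and 12 with the 2-fold minimum, and 14 to 25 without 1 library. The 515 that differed from Myc cKO UUO became 1389, 16 and 12, and 57 to 691 without 1 library. The 5 members of gene lists past the test became 48 with DESeq2, 15 with limma voom, 3 with no filter on low counts, 3 without mitochondrially encoded genes, 2 with the Cre covariate, 1 with 2 groups and 1 with the 2-fold minimum, and 1 to 16 without 1 library. The median of the genes higher in obstruction was -0.34 to -0.22 without 1 library, with -0.22 without WT UUO replicate 1. Leaving out the Twist and Myc cKO UUO libraries was chosen after seeing the data. The cause of these shifts was not tested.

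Small values changed sign, none of them past the test in either setting. Without 1 library the log2 fold changes ran between -0.26 and 0.99 for Snai3, -0.26 and 0.059 for Myc, -0.12 and 0.21 for Vegfa, -0.22 and 0.068 for Havcr1, -0.14 and 0.16 for Zfp125, and -0.26 and 0.060 for Fggy; Zfp125 was -0.060 with the sex and -0.10 with the Cre covariate. The list medians without 1 library ran between -0.21 and 0.12 for hypoxia-induced genes, -0.14 and 0.37 for podocyte, -0.14 and 0.17 for glycolysis, -0.17 and 0.038 for the Myc network, -0.58 and 0.30 for T and B cell, -0.39 and 0.046 for interferon-stimulated genes, -0.17 and 0.10 for MHC class I, -0.0061 and 0.32 for strain-variable genes, and -4.90 and 0.26 for adipocyte genes. T and B cell was -0.13 with limma voom and -0.018 with the sex covariate, MHC class I -0.015 with limma voom and -0.049 with the Cre covariate, and strain-variable genes -0.043 with the Cre covariate. Of 2774 alternatives for single genes, 2329 kept direction and side of the threshold, 372 kept only the direction, 58 newly passed and 15 changed sign.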
